A study of Mus musculus with 12 samples.

Results

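Growth hormone reaches the liver through its receptor, and much of what it does to body growth runs through proteins that hepatocytes secrete. A set of 10 genes of that axis was followed across mouse liver RNA. They are Ghr, the growth hormone receptor; Igf1, the circulating growth factor made under growth hormone; Igfals, the acid-labile subunit that holds IGF1 in its large serum complex; Igfbp1, Igfbp2, Igfbp3 and Igfbp4, which bind IGFs in serum and tissue; Igf2r, the receptor that clears IGF2 and carries mannose-6-phosphate cargo to lysosomes; and Socs2 and Cish, feedback inhibitors that STAT5 switches on after growth hormone. The genes were taken by name, as a receptor, ligand, binding protein and feedback list. No cut on a measured value was used, but earlier results of these data were known when they were chosen. All 10 of 10 were found among the 47263 genes of the table, and all 10 passed the filter on low values, as did 13871 genes in all.

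The study asked what loss of the deacetylase gene Sirt2 in hepatocytes does to livers with and without a liver cancer model. Whole liver was sequenced in 12 libraries, 3 in each of 4 groups. GFP was given to wild-type livers (WT GFP) and to livers with the hepatocyte deletion of Sirt2 (KO GFP), and the oncogenes MET and CAT to livers of both genotypes (WT MET/CAT, KO MET/CAT). The oncogene plasmids are given as pT3-EF1a-c-MET and pT3-EF1a-DN90-β-Catenin, and were mixed with HSB2, which encodes the Sleeping Beauty transposase that places them in the genome of hepatocytes. Per the labels' protocols, plasmids in 2 mL saline were pushed rapidly into the tail vein of mice aged 6 to 8 weeks, and livers were collected 8 weeks later. No source used here gives the GFP plasmid, the Cre driver of the deletion, the strain and sex of the mice, or the time of day and feeding state at collection. Groups follow the sample titles. The treatment field of the labels splits by genotype alone, with GFP on all 6 WT and MET/CAT on all 6 KO libraries, and so goes against 6 titles; directions here take the titles as right. Whether each library is a separate mouse is not stated, and p-values then measure only how far these libraries spread, which may be technical.

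Values are normalized reads, namely read counts divided by 1 factor per library, and the libraries held 18208879 to 24352961 reads. Sirt2 was at 125.7 to 248.1 normalized reads in the 6 KO libraries and at 725.8 to 1068 in the 6 WT libraries, so it was lower in every KO library. The 8 hepatocyte markers summed to 2.14e+06 to 3.58e+06 normalized reads. KO GFP replicate 3 stood apart on the first principal component, at -88.95 against -33.18 to 52.78 for the other 11 libraries. KO MET/CAT replicate 1 stood apart on the 10 immediate early genes, which summed to 28306 against 2649 to 8681 elsewhere. Xist was read in all 12 libraries at 877.9 to 2299.6 normalized reads, and the Y-linked Ddx3y, Eif2s3y, Kdm5d and Uty were at 9.07 or less in all 12. In RNA from whole tissue, fewer cells of a type and less RNA per cell cannot be told apart.

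Growth hormone acts on its target genes mostly through STAT5, which binds the letters TTCNNNGAA, while insulin silences Igfbp1 through FOXO1, which binds letters such as CAAAACA. Both were searched on both strands of the RefSeq promoter windows of GRCm38.p6, each 250 bases before to 50 after a gene's start. Windows were held for 9 of the 10 genes, 13 windows in all, and not for Socs2. TTCNNNGAA lay in 3 of them, 1 of Cish and 2 of Igfals, and CAAAACA in 1, that of Igfbp1. Among 32851 windows of the same length, 8.30% held TTCNNNGAA, 0.457% held it at least 2 times and 6.28% held CAAAACA. The stretches below show these matches in the 3 genes, in capitals, because Cish and Igfbp1 differed most between libraries. They lie at chr9:107296559-107296678, chr17:24878111-24878230 and chr11:7197637-7197756, all on the plus strand.
Cish: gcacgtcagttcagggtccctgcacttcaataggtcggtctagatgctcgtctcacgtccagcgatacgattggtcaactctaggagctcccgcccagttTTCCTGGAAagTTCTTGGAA
Igfals: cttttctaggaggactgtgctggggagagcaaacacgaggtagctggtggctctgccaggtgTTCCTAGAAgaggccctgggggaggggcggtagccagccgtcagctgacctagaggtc
Igfbp1: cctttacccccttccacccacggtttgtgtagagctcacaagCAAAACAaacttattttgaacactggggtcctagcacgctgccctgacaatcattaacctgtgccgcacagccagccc
The Cish window held 2 matches, TTCCTGGAA beginning at base 1 after the start and TTCTTGGAA at base 12. The Igfals match shown, TTCCTAGAA, began 58 bases before that window's start, and a second start of Igfals had TTCTCAGAA 236 bases before it. The Igfbp1 match began 108 bases before the start. A match is a run of letters and not a measured binding site.

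Per kilobase of exon, the scale on which genes can be compared, the 10 genes ran over more than 2 orders of magnitude. Averaged over 12 libraries, Igfbp4 was at 10741 normalized reads per kilobase and Igfbp2 at 8661, followed by Igfbp1 at 1891, Igf1 at 1365, Igfals at 1056, Ghr at 783.0, Igfbp3 at 207.1, Igf2r at 54.8, Socs2 at 41.7 and Cish at 30.8. Neighbours in that order overlapped in their ranges over libraries in most cases. Igfbp4 ran from 8143 to 13334 per kilobase and Igfbp2 from 2484 to 14582, and Igf1, Igfals and Ghr together ran from 585.2 to 1908. The place of Igfbp1 rested on 1 library, since it ran from 80.3 to 12863 per kilobase. Igfbp3, at 121.0 to 281.8 per kilobase, lay below every library of Ghr and above every library of Igf2r, which ran from 37.4 to 77.4. In WT GFP livers Igfbp1 came sixth, at 482 ± 549 per kilobase (SD, n = 3), below Ghr at 755.8 ± 35.7 (SD, n = 3).

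**Figure D1:**
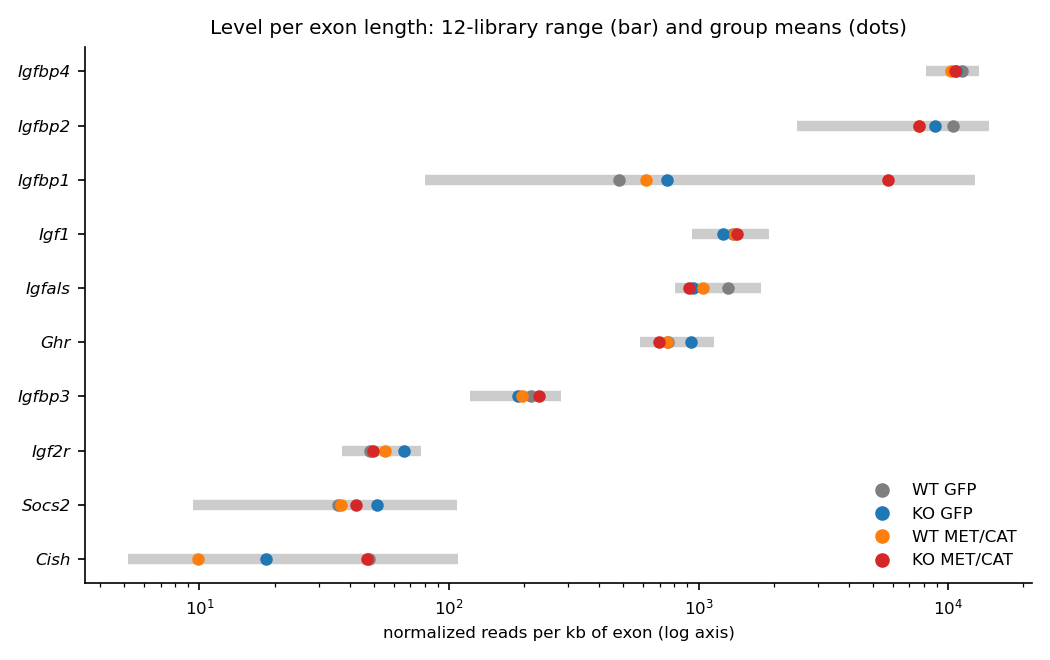
Normalized reads per kilobase of exon for the 10 genes on a log axis, with a grey bar for the range over 12 libraries, a dot for the mean of each group and genes in order of their mean over 12 libraries. Igfbp4 and Igfbp2 lie highest and Socs2 and Cish lowest, and Igfbp1 has the widest span, from 80.3 to 12863.

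The genes differed in how much they varied between libraries of 1 group. The SD of log2 values within groups was 0.20 for Igf2r, 0.22 for Igfbp4, 0.23 for Ghr, 0.34 for Igfals, 0.34 for Igf1 and 0.35 for Igfbp3, all below the median of 0.42 over the 13871 genes tested. It was 0.87 for Igfbp2, 1.03 for Cish, 1.15 for Socs2 and 1.36 for Igfbp1. Igfbp1 varied more within groups than 96.5% of all genes, and more than 99.8% of the 500 genes of nearest mean level. For Socs2, Cish and Igfbp2 the share of such genes with a smaller SD was 99.2%, 99% and 98.2%. Of the genes below that median, Igf2r, Igfbp4 and Ghr had smaller SDs than most genes of nearest mean, with 19.6%, 21.4% and 28.6% of those below them. Igf1, Igfals and Igfbp3 were at or above the middle of such genes, at 53.6%, 60.8% and 66.2%.

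**Figure D2:**
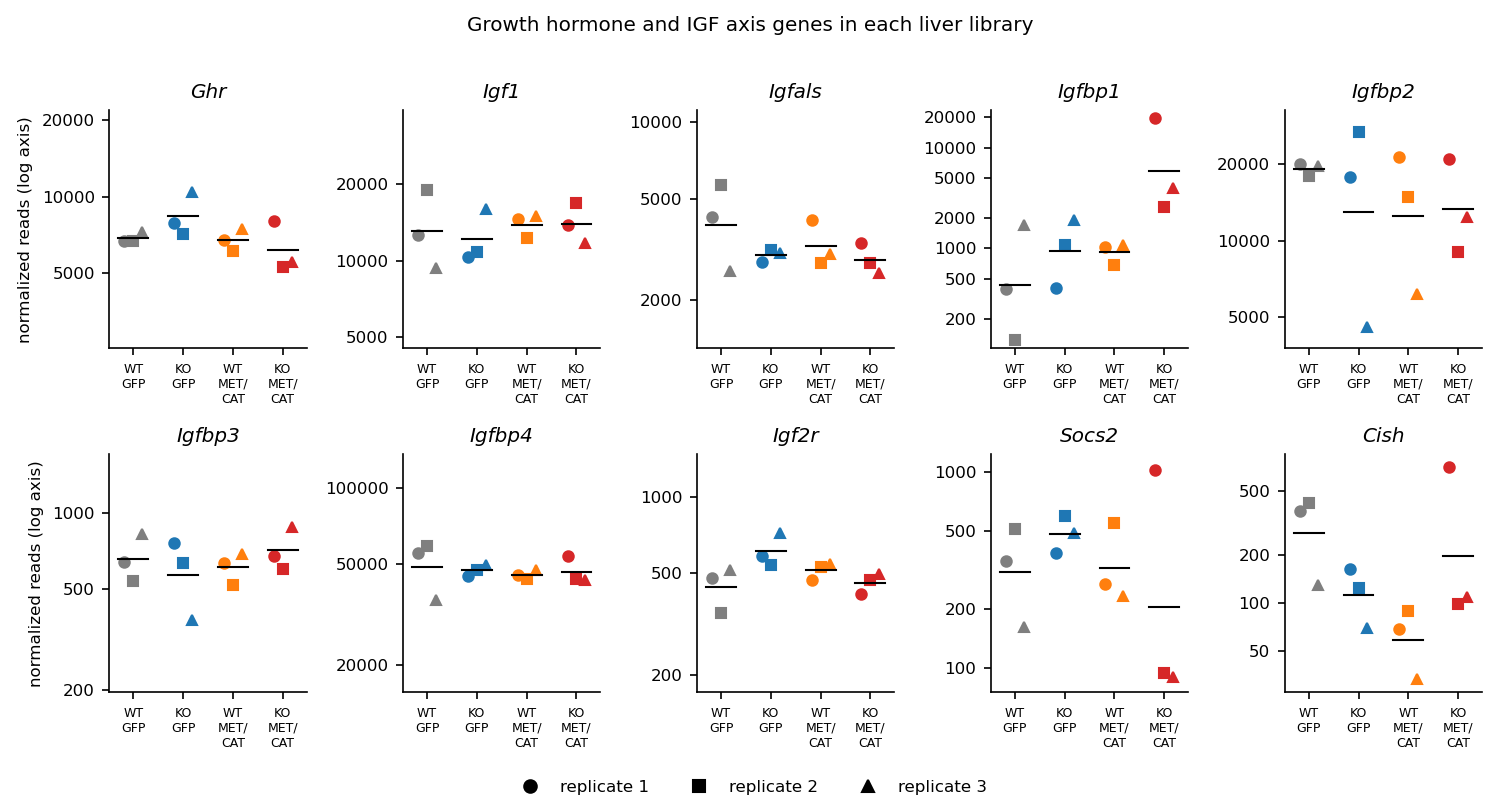
Normalized reads of each of the 10 genes on log axes, 1 point per library in the 4 groups, with a short line at the mean of the log2 values of the 3 libraries. Ghr, Igf1, Igfals, Igfbp3, Igfbp4 and Igf2r stay within about the same level in all groups, Igfbp1 lies highest in KO MET/CAT livers, and Cish lies low in WT MET/CAT livers.

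Tested over all genes, no member of the axis was called in any comparison. The fit was limma on log2(value + 1) with 4 group means, and a call needed a Benjamini-Hochberg adjusted p under 0.05 over all 13871 genes. For the effect of the deletion, 0 of 10 were called in GFP livers, where 0.00721% of all genes were called, 0 in MET/CAT livers, also 0.00721%, and 0 averaged over plasmids, 0.0144%. For the effect of MET/CAT, 0 of 10 were called in WT livers, where 0.339% of all genes were called, 0 in KO livers, 1.25%, and 0 averaged over genotypes, 3.8%. The test of whether the plasmid effect differed between genotypes, the interaction, called 0 of 10, and 0% of all genes. In these 7 comparisons 1, 2, 1, 1, 1, 1 and 2 of the 10 genes had an unadjusted p under 0.05. The order is deletion in GFP and in MET/CAT livers, plasmid in WT and in KO livers, both averages and the interaction. A low p was common among all genes. For MET/CAT in KO livers 20.4% of all genes had a smaller p than Ghr, at 0.0502 by limma. Smaller than that of Igf2r were 11.6% for the deletion in GFP livers (0.0346 by limma) and 13.7% in the interaction (0.0426 by limma). Such counts in the lists below are given without that background. edgeR on the recovered reads also called 0 of 10 in each of the 7, where it called 0.526% of all genes for MET/CAT in WT livers, 1.46% in KO livers and 4.46% averaged over genotypes. DESeq2 called 0 of 10 in each as well, against 4.17%, 6.69% and 8.21% of all genes in the same 3 comparisons. The median difference of the 10 genes lay near that of all genes in the 4 comparisons of 2 groups. It was -0.08 log2 units against -0.07 for the deletion in GFP livers, 0.03 against -0.0019 in MET/CAT livers, -0.06 against -0.01 for MET/CAT in WT livers and 0.01 against 0.05 in KO livers.

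**Figure D3:**
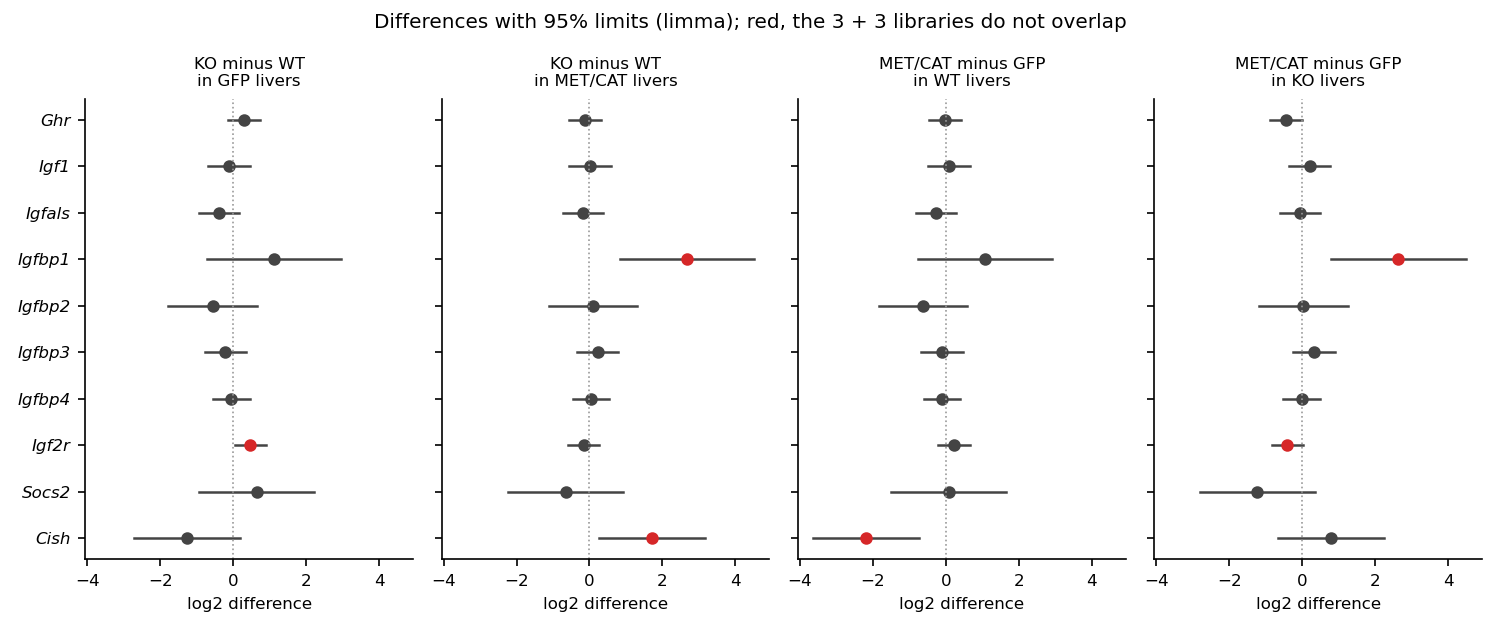
Log2 differences of the 10 genes in the 4 comparisons of 2 groups, with bars for the 95% confidence interval from limma and red dots where the 3 libraries of each group did not overlap. Most intervals span 0, and the intervals of Igfbp1 and Cish in MET/CAT livers, Cish in WT livers, Igfbp1 in KO livers and Igf2r in GFP livers do not, though none was called after adjustment.

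Ghr (chr15:3317760-3583492, minus strand), through which growth hormone acts on hepatocytes, was among the steadiest of the genes. It was at 6651, 6661 and 7216 normalized reads in WT GFP libraries and at 7895, 7117 and 10430.2 in KO GFP libraries. It was at 6716, 6115 and 7428 in WT MET/CAT and at 8028, 5298 and 5511 in KO MET/CAT libraries. The highest value was that of KO GFP replicate 3, and the KO GFP and WT GFP libraries overlapped only between 7117 and 7216. KO GFP differed from WT GFP by 0.29 log2 units (SE 0.21, 95% interval -0.15 to 0.73, adjusted p = 0.475 by limma), and by 0.13 without KO GFP replicate 3. MET/CAT differed from GFP by -0.44 in KO livers (SE 0.21, adjusted p = 0.246 by limma) and by -0.02 in WT livers (SE 0.21, interval -0.46 to 0.42). Neither passed the test. By Pearson's r of log2 values over 12 libraries among 8362 genes, the patterns most like that of Ghr were those of Dcun1d1 at 0.98, Usf3 at 0.92 and Fam126b at 0.91.

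Igf1 (chr10:87858265-87937042, plus strand), the endocrine growth factor for which liver is the main source, was at a like level in all 4 groups. It was at 12672, 18895 and 9359.8 normalized reads in WT GFP and at 10339, 10804 and 15926 in KO GFP libraries. It was at 14578, 12266 and 14939.7 in WT MET/CAT and at 13866, 16834 and 11729 in KO MET/CAT libraries. The 2 extremes were both WT GFP libraries, so the spread inside that group covered every other library. The difference was 0.01 log2 units for the deletion in MET/CAT livers (SE 0.26, 95% interval -0.56 to 0.58) and -0.11 in GFP livers (SE 0.26, interval -0.68 to 0.46). For MET/CAT against GFP it was 0.08 in WT livers (interval -0.48 to 0.65) and 0.21 in KO livers (interval -0.36 to 0.78). A change of 2-fold, 1 log2 unit, lies outside each of these 4 intervals. The antisense gene Igf1os overlaps Igf1 and was at 25.6 to 161.4 normalized reads, far below Igf1 itself. The nearest patterns were those of Lman2, Ogfrl1 and Itpr2, at r of 0.90, 0.86 and 0.84.

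Igfals (chr17:24865997-24882010, plus strand) is made by hepatocytes under growth hormone and keeps IGF1 in the circulation. It was at 4242, 5655 and 2588 normalized reads in WT GFP and at 2827, 3157 and 3064 in KO GFP libraries. It was at 4128, 2785 and 3026 in WT MET/CAT and at 3336, 2789 and 2548 in KO MET/CAT libraries. The 3 highest values were all WT libraries, but the lowest WT GFP library lay below all 3 KO GFP libraries. KO GFP differed from WT GFP by -0.39 log2 units (SE 0.25, 95% interval -0.94 to 0.15, adjusted p = 0.436 by limma), and by -0.14 without WT GFP replicate 2, the highest library. In MET/CAT livers it differed by -0.18 (SE 0.25, adjusted p = 0.860 by limma).

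Igfbp1 (chr11:7197782-7202546, plus strand) is the binding protein that insulin represses and fasting raises, and it had the widest range of the 10 genes, 160.3-fold from lowest to highest. It was at 393.9, 122.4 and 1689 normalized reads in WT GFP and at 400.5, 1089 and 1923 in KO GFP libraries. It was at 1043, 675.9 and 1089.6 in WT MET/CAT and at 19616, 2562 and 4007 in KO MET/CAT libraries. All 3 KO MET/CAT libraries lay above the other 9, and the highest of them was far above its own group. The deletion differed by 2.68 log2 units in MET/CAT livers (SE 0.86, 95% interval 0.83 to 4.53, adjusted p = 0.501 by limma), and by 1.81 without KO MET/CAT replicate 1. MET/CAT differed from GFP by 2.63 in KO livers (SE 0.86, interval 0.79 to 4.48, adjusted p = 0.128 by limma), and by 1.76 without that library. Both differences missed the threshold. In GFP livers the deletion differed by 1.12 (SE 0.86, interval -0.73 to 2.97), and the interaction was 1.56 (SE 1.22, adjusted p = 0.538 by limma), so the effects in the 2 plasmid groups were not shown to differ. With 1 library left out, the GFP difference ran from 0.21 without WT GFP replicate 2 to 2.10 without WT GFP replicate 3, and the interaction from 0.58 without WT GFP replicate 3 to 2.47 without WT GFP replicate 2.

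Other lists were high in the KO MET/CAT libraries too. The 10 immediate early genes, such as the transcription factor genes Fos and Junb that respond quickly to signals, summed to 8247 to 28306 normalized reads there, with the highest sum in replicate 1. They summed to 2744 to 3393 in WT GFP, 3569.8 to 4643 in KO GFP and 2649 to 5148 in WT MET/CAT libraries. For MET/CAT in KO livers all 9 tested members of that list were above 0 and 2 were called, where 1.25% of all genes were called. They were Btg2 at 2.86 log2 units (SE 0.54, adjusted p = 0.0227 by limma) and Junb at 3.71 (SE 0.71, adjusted p = 0.0263 by limma). The 6 neutrophil markers, led by S100a8 and S100a9, summed to 396.5 to 3003 in KO MET/CAT libraries, again with the highest in replicate 1, to 301.0 to 1022 in WT MET/CAT libraries, which overlapped them, and to 57.0 to 174.5 in the GFP libraries. Ly6g, the defining surface marker of that list, was at 0 in 9 of 12 libraries. The part of either list in the Igfbp1 values was not tested. Chosen after its values were seen, Irs2, the insulin receptor substrate that insulin also represses, ran with Igfbp1 at r = 0.89 over 12 libraries (rho = 0.81), and at 0.80 over the 11 without KO MET/CAT replicate 1. Irs2 was at 681.6, 146.5 and 155.0 normalized reads in KO MET/CAT libraries and at 21.5 to 188.9 in the other 9, and it was not called for MET/CAT in KO livers or for the deletion in MET/CAT livers (adjusted p = 0.256 and 0.638 by limma). Of the 13 listed insulin and FOXO1 responsive genes, 4 were above 0 and 9 below for MET/CAT in KO livers, with a median of -0.38. For the deletion in MET/CAT livers 11 were above 0 and 2 below, with a median of 0.31, and 0 were called in either comparison. The part of this list in the Igfbp1 values was not tested. Ip6k2 lay nearer to Igfbp1 than Irs2 did, at r = 0.92.

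Igfbp3 (chr11:7206086-7213923, minus strand), the main partner of IGF1 in its serum complex, lies beside Igfbp1, with 3539 bases between the ends of both genes. It was at 641.2, 537.1 and 822.9 normalized reads in WT GFP and at 758.1, 635.9 and 378.8 in KO GFP libraries. It was at 635.9, 517.8 and 689.3 in WT MET/CAT and at 676.8, 602.6 and 882.1 in KO MET/CAT libraries. Its range of 2.33-fold was small beside the 160.3-fold of its neighbour, and all groups overlapped. With the deletion it differed by 0.22 log2 units in MET/CAT livers (SE 0.26, 95% interval -0.35 to 0.79) and by -0.21 in GFP livers (SE 0.26, interval -0.78 to 0.36). In liver, Igfbp3 is made mostly by cells other than hepatocytes. Its lowest value was in KO GFP replicate 3, where the 12 Kupffer cell and macrophage markers summed to 1822 normalized reads against 5731 to 12615 in the other 11 libraries, and the 12 endothelial markers to 3468 against 3963 to 7594. Each of these 24 markers was above 0 in every library, and their part in the Igfbp3 values was not tested.

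Igfbp2 (chr1:72824503-72852474, plus strand), a binding protein abundant in fetal and adult liver, was uneven from library to library. It was at 20000.4, 17995 and 19796 normalized reads in WT GFP and at 17778, 26933 and 4588 in KO GFP libraries. It was at 21308, 14881 and 6199.6 in WT MET/CAT and at 20985, 9041 and 12449 in KO MET/CAT libraries. The 3 WT GFP libraries were close together, and each of the other groups held both a library near them and a library at or under 9041. For the deletion in GFP livers the difference was -0.57 log2 units (SE 0.56, 95% interval -1.78 to 0.64, adjusted p = 0.620 by limma), and it was 0.19 without KO GFP replicate 3. In MET/CAT livers it was 0.09 (SE 0.56, interval -1.12 to 1.30), a range that holds a change of 2-fold in either direction.

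Igfbp4 (chr11:99041244-99054392, plus strand), an inhibitor of IGF action that proteases release, was the most abundant of the axis and close to even. It was at 55134, 58881 and 35961 normalized reads in WT GFP and at 44868, 47518 and 49566 in KO GFP libraries. It was at 45175, 43896 and 47344 in WT MET/CAT and at 53849, 43522 and 43493 in KO MET/CAT libraries. Highest and lowest were both WT GFP libraries, as for Igf1. All 4 differences of 2 groups lay between -0.10 and 0.04 log2 units with an SE of 0.24.

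Igf2r (chr17:12682406-12769664, minus strand) had the smallest spread and 1 of the few separations of groups. It was at 477.7, 347.9 and 518.0 normalized reads in WT GFP and at 586.5, 541.8 and 720.5 in KO GFP libraries. It was at 471.5, 532.5 and 544.8 in WT MET/CAT and at 414.2, 472.9 and 496.8 in KO MET/CAT libraries. All 3 KO GFP libraries lay above all 3 WT GFP libraries and above all 3 KO MET/CAT libraries. In GFP livers 1 of 10 genes separated in this way, Igf2r, against 22.1% of all genes in either direction and 9.15% higher, so the count itself is under the background. The deletion differed by 0.47 log2 units in GFP livers (SE 0.20, 95% interval 0.04 to 0.90, adjusted p = 0.298 by limma) and by -0.16 in MET/CAT livers (SE 0.20, interval -0.59 to 0.27). Without WT GFP replicate 2 the first was 0.30, without KO GFP replicate 3 it was 0.35, and with the trend on transcript length removed it was 0.30. The interaction was -0.63 (SE 0.28, interval -1.24 to -0.02, adjusted p = 0.311 by limma). The antisense gene Airn overlaps Igf2r and was at 0 to 5.23 normalized reads. In the KO GFP libraries the Kupffer cell and macrophage markers were low, at 1822 to 6062 normalized reads summed against 9518.5 to 12615 in WT GFP libraries, with 12 of 12 below 0 for the deletion and 0 called. Their part in the Igf2r values was not tested.

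Socs2 (chr10:95385362-95417180, minus strand) encodes the inhibitor that marks the growth hormone receptor for destruction, and mice without it grow large. It was at 351.0, 515.6 and 162.0 normalized reads in WT GFP and at 385.5, 601.3 and 490.0 in KO GFP libraries. It was at 268.1, 552.5 and 232.4 in WT MET/CAT and at 1028, 94.2 and 90.2 in KO MET/CAT libraries. KO MET/CAT replicate 1 was the highest of the 12 libraries and the other 2 of that group were the lowest. MET/CAT differed from GFP by -1.23 log2 units in KO livers (SE 0.73, 95% interval -2.80 to 0.35, adjusted p = 0.362 by limma). Without KO MET/CAT replicate 1 it was -2.38 and passed the test (SE 0.45, adjusted p = 0.0455 by limma), with the group then resting on 2 libraries. No other fit that left out a library called Socs2 there. The share of all genes called in this fit is not given here, so the call is not read as a result about Socs2. The deletion differed by -0.65 in MET/CAT livers (SE 0.73, adjusted p = 0.825 by limma), and by -1.81 without that library, but by 0.19 in edgeR and 0.20 in DESeq2, so its direction is not settled. In GFP livers it differed by 0.65 (SE 0.73, adjusted p = 0.672 by limma), and by 0.19 without WT GFP replicate 3 and 1.02 without WT GFP replicate 2. The nearest patterns to that of Socs2 were Abcc3, Mettl7a1 and Fam133b, at r of 0.80, 0.79 and 0.79.

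Cish (chr9:107296026-107302784, plus strand), the other STAT5-induced inhibitor and the gene with both TTCNNNGAA matches shown above, differed most between the WT groups. It was at 375.0, 415.9 and 129.9 normalized reads in WT GFP and at 162.6, 123.9 and 69.6 in KO GFP libraries. It was at 68.8, 88.6 and 33.4 in WT MET/CAT and at 699.6, 98.3 and 108.3 in KO MET/CAT libraries. All 3 WT MET/CAT libraries lay below all 3 WT GFP libraries and below all 3 KO MET/CAT libraries. MET/CAT differed from GFP by -2.19 log2 units in WT livers (SE 0.68, 95% interval -3.64 to -0.74, adjusted p = 0.159 by limma) and by 0.80 in KO livers (SE 0.68, interval -0.65 to 2.25), which turned to -0.12 without KO MET/CAT replicate 1. The interaction was 2.99 (SE 0.96, interval 0.94 to 5.04, adjusted p = 0.265 by limma). The deletion differed by 1.72 in MET/CAT livers (SE 0.68, adjusted p = 0.598 by limma), and by 0.80 without KO MET/CAT replicate 1. In GFP livers it differed by -1.28 (SE 0.68, adjusted p = 0.360 by limma), and there the groups overlapped. The genes Gm17040 and Gm17041 overlap Cish on the other strand, and Gm17040 was at 0 to 29.5 normalized reads. Their part in the Cish values was not tested.

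Among the 10 genes, groups did not overlap for 2 in the deletion in MET/CAT livers, Igfbp1 and Cish, both higher in KO, against 13.8% of all genes in either direction, 6.82% higher and 7.01% lower. For MET/CAT in WT livers it was 1 gene, Cish, lower, against 20.7% of all genes and 10.3% lower. For MET/CAT in KO livers it was 2 genes, Igfbp1 higher and Igf2r lower, against 25% of all genes, 14.4% higher and 10.7% lower. Counts of 1 or 2 in 10 are close to these backgrounds. The comparisons share groups, so that each low or high group enters 2 of them.

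The 2 feedback inhibitors were compared library by library, together with 4 other pairs. Over all 12 libraries Socs2 and Cish had r = 0.46 (permutation p = 0.131, adjusted over 5 pairs 0.327; rho = 0.38, permutation p = 0.227, adjusted 0.568). After each group's mean was subtracted r was 0.89 (exact permutation within groups, p = 0.0231, adjusted 0.116) and rho 0.86 (p = 0.0208 by the same exact permutation, adjusted 0.104). Neither passed after adjustment. In a check added after the values were seen, the centred r without KO MET/CAT replicate 1 was 0.72 over 11 libraries, and without replicates 1 and 3 of that group it was 0.72 over 10. In the second the only KO MET/CAT library left is its own group mean. It then has no deviation for either gene and adds nothing, so that r rests on the other groups. Igf1 and Igfals, which growth hormone regulates together, had r = 0.57 (permutation p = 0.0519, adjusted 0.259; rho = 0.48, permutation p = 0.116, adjusted 0.568). It was 0.15 without WT GFP replicates 2 and 3, so it rests on those libraries. With group means subtracted it was 0.72 (exact permutation p = 0.0679, adjusted 0.170). Ghr and Igf1 had r = -0.01 (rho = -0.10), Igf1 and Socs2 r = 0.07 (rho = 0.02) and Igf1 and Igfbp1 r = -0.11 (rho = 0), with permutation p of 0.980, 0.827 and 0.745 and adjusted values of 0.980 for each. All 5 pairs are read from the same 12 libraries, and the factor that scales a library enters both genes.

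**Figure D4:**
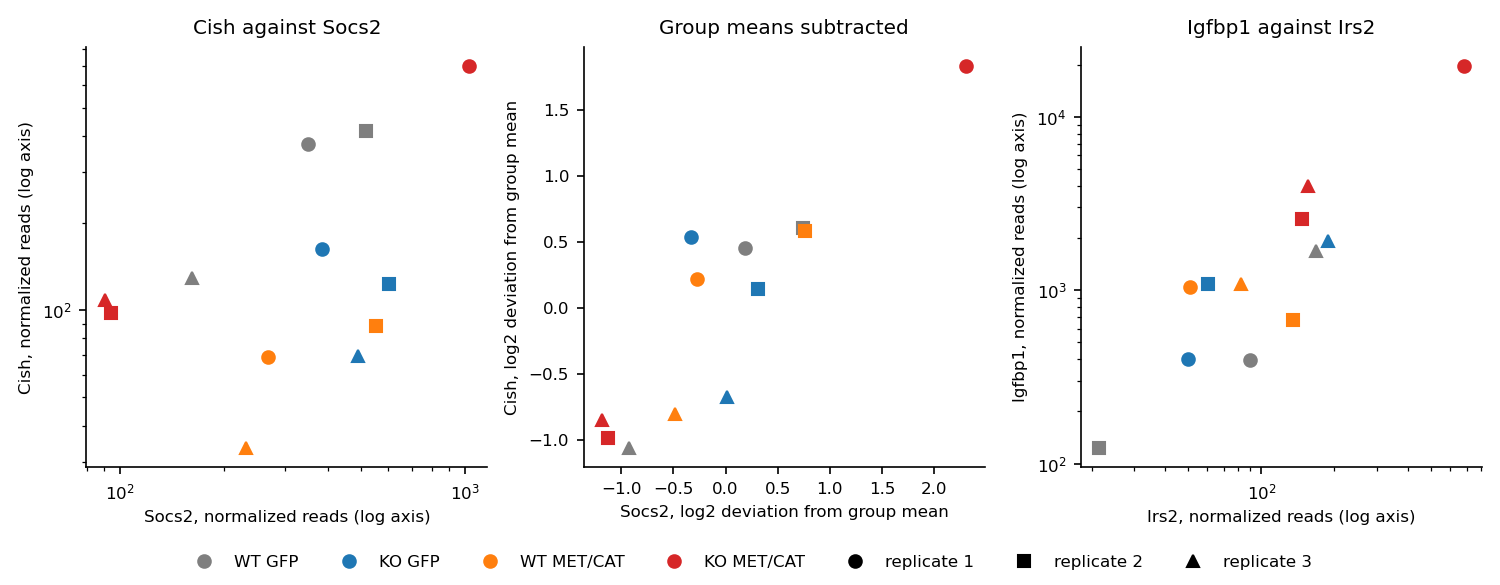
Cish against Socs2 in normalized reads on log axes (left), the same as log2 deviations from each group's mean (middle), and Igfbp1 against Irs2 in normalized reads on log axes (right), 1 point per library with colour for the group and shape for the replicate. KO MET/CAT replicate 1 lies at the upper right of each panel, and the middle panel has r = 0.89, or 0.72 without that library.

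Of the other genes of the pathway, 42 were listed, 30 were tested, and those that passed were signalling genes shared with cytokines. Averaged over genotypes, MET/CAT livers had 4 of the 30 genes called higher and 0 lower, where 3.8% of all genes were called. Socs3, an inhibitor of the growth hormone receptor that interleukin-6 also switches on, rose by 3.46 log2 units (SE 0.44, adjusted p = 0.00111 by limma). It was at 30.3 to 98.7 normalized reads in the 6 GFP libraries and at 174.6 to 2267 in the 6 MET/CAT libraries, which did not overlap. Stat3 rose by 1.18 (SE 0.21, adjusted p = 0.00746 by limma), Stat5a by 1.22 (SE 0.25, adjusted p = 0.0161 by limma) and the phosphatase gene Ptpn1 by 0.92 (SE 0.23, adjusted p = 0.0437 by limma). The first 3 kept their call in all 12 fits that each left out 1 library, and Ptpn1 in 3 of 12. Stat5a, a transducer of the growth hormone signal, was at 103.7 to 173.6 normalized reads with GFP and at 206.3 to 581.0 with MET/CAT, again without overlap.

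By genotype, MET/CAT in KO livers had 1 of the 30 called, against 1.25% of all genes, Socs3 at 4.25 log2 units (SE 0.63, adjusted p = 0.00741 by limma), and in WT livers 0 of 30, with 9 at an unadjusted p under 0.05. There Socs3 was at 2.68 (SE 0.63, adjusted p = 0.0769 by limma), Stat5a at 1.47 (SE 0.35, adjusted p = 0.0824 by limma) and Igf2 at 1.82 (SE 0.51, adjusted p = 0.126 by limma). Igf2, the fetal growth factor that adult mouse liver hardly makes, was at 48.8, 24.3 and 46.7 normalized reads in WT MET/CAT libraries and at 6.02 to 18.1 in the other 9. The deletion called 0 of 30 in GFP and in MET/CAT livers, with 6 and 4 at an unadjusted p under 0.05. The median of the 30 was 0.27 log2 units for MET/CAT in WT livers, against -0.01 for all genes, and 0.14 in KO livers, against 0.05. The 11 acute phase genes, 1 of which is Socs3, summed to 2.05e+05 to 3.19e+05 normalized reads in GFP libraries and to 3.77e+05 to 6.75e+05 in MET/CAT libraries. Averaged over genotypes 3.8% of all genes were called, and of these 11 genes 8 were called higher. Their part in the Socs3 and Stat values was not tested.

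**Figure D5:**
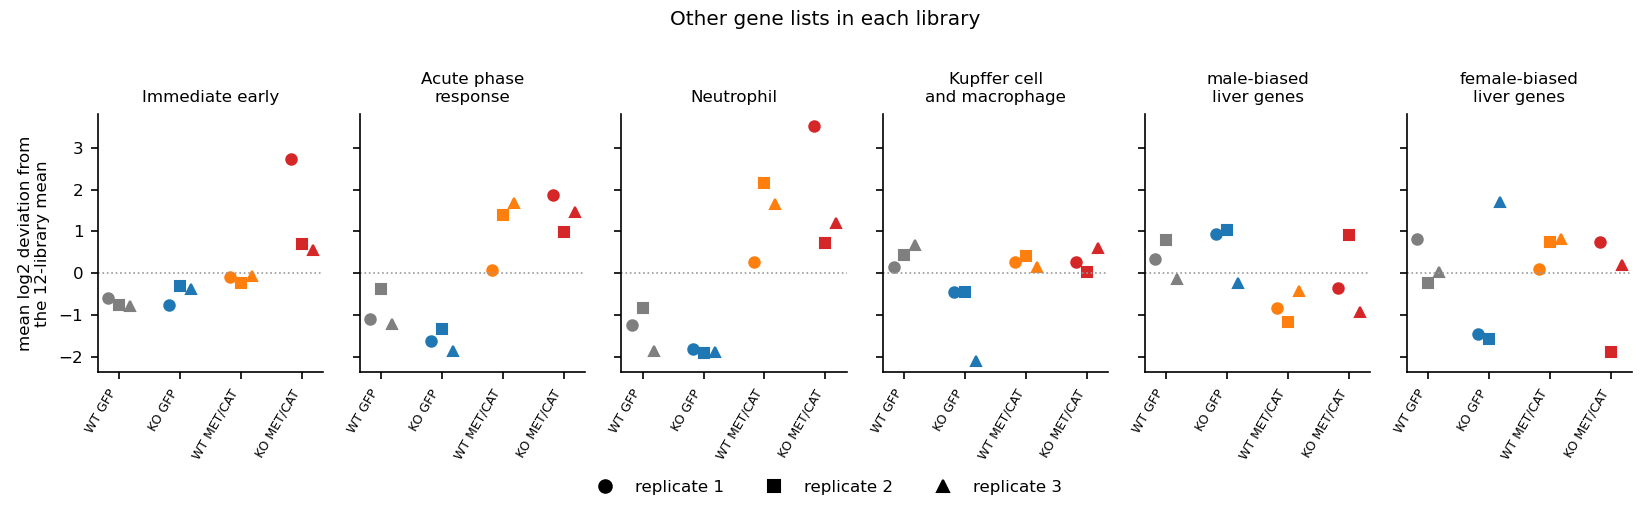
Mean log2 deviation of 6 gene lists from their mean over 12 libraries, 1 point per library by group, with shape for the replicate and a dotted line at 0. KO MET/CAT replicate 1 is highest for the immediate early (2.73) and neutrophil (3.52) lists, KO GFP replicate 3 is lowest for the Kupffer cell list (-2.09), and the acute phase list is higher in every MET/CAT than in every GFP library.

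Growth hormone reaches rodent liver in pulses in males and more steadily in females, and sets which sex-biased genes are on. These genes were therefore read beside the axis. The hormone and its signal were not measured, and its part in the values below was not tested. By Xist and the Y-linked genes given above, all 12 libraries read as female, though no source used here states the sex. Of 27 genes listed as male-biased, 26 were tested. MET/CAT in WT livers left 22 of 26 below 0, with a median of -1.03 log2 units against -0.01 for all genes, and 1 called lower, the urinary protein gene Mup15 at -5.02 (SE 0.72, adjusted p = 0.00966 by limma), where 0.339% of all genes were called. The call held in 4 of 6 fits that left out a library and was lost without WT GFP replicate 1 or 2. In KO livers 19 of 26 were below 0, with a median of -0.65, and Mup15 was again called, at -3.34 (SE 0.72, adjusted p = 0.0415 by limma), a call held in 1 of 6 fits that left out a library. Averaged over genotypes, where 3.8% of all genes were called, 4 of the list were called lower. They were Mup15, which fell by 4.18, Mup11, which fell by 2.07, the steroid enzyme gene Hsd3b5, which fell by 3.38, and Mup1, which fell by 1.90, with adjusted p of 0.000893, 0.0184, 0.0241 and 0.0261 by limma. Without WT GFP replicate 2 the last 3 were not called, and Hsd3b5 and Mup1 held in 6 and 7 of 12 fits that left out a library. Mup genes are near-identical copies, and reads may be split among them. For the deletion in MET/CAT livers 24 of 26 were above 0, with a median of 0.60, and 0 were called, with 3 at an unadjusted p under 0.05. The libraries of that group differed: the mean log2 deviation of the list was 0.92 in KO MET/CAT replicate 2 and -0.35 and -0.93 in replicates 1 and 3, against -1.15 to -0.43 in WT MET/CAT libraries.

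Of 20 genes listed as female-biased, 18 were tested. Cyp2a4, a steroid hydroxylase gene, was called lower for MET/CAT in WT livers, at -1.63 log2 units (SE 0.31, adjusted p = 0.0473 by limma), in 3 of 6 fits that left out a library. Averaged over genotypes Cyp2a4 fell by 1.07 (SE 0.22, adjusted p = 0.0175 by limma), a call held in 12 of 12 such fits, and Acot3 fell by 1.72 (SE 0.41, adjusted p = 0.0348 by limma), held in 4 of 12. In no comparison was a gene of this list called higher. For MET/CAT in WT livers 12 of 18 values lay above 0, with a median of 0.41 against -0.01 for all genes. In KO livers it was 10 of 18, with a median of 0.12 against 0.05. Averaged over genotypes it was 12 of 18, with a median of 0.43 against 0.02. Cyp2a4 was at 10112, 14026 and 21412 normalized reads in WT MET/CAT libraries and at 34603 to 61598 in WT GFP libraries. For the deletion 15 of 18 were below 0 in GFP livers and 15 of 18 in MET/CAT livers, with medians of -0.66 and -0.60 and 0 called in either. The libraries went opposite ways: the mean log2 deviation of the list was -1.46 and -1.56 in KO GFP replicates 1 and 2 but 1.70 in replicate 3, the highest of the 12 libraries. It was -1.87 in KO MET/CAT replicate 2 against 0.74 and 0.19 in replicates 1 and 3. Of 8 tested STAT5-activated genes, Mup1 alone was called, averaged over genotypes, as above. Of 13 insulin and FOXO1 responsive genes, 3 were called lower averaged over genotypes, where 3.8% of all genes were called. Sesn1 fell by 0.87, Foxo3 fell by 0.74 and Srebf1 fell by 0.65, with adjusted p of 0.0275, 0.0278 and 0.0349 by limma, each held in 5 or fewer of 12 fits. None of the 13 was called in the other 6 comparisons.

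Clock genes also differed with the plasmid. Of 11 tested, 2 were called higher and 4 lower averaged over genotypes, where 3.8% of all genes were called. Among them were Arntl at 3.54 log2 units (SE 0.52, adjusted p = 0.00246 by limma) and Dbp at -4.73 (SE 0.79, adjusted p = 0.00576 by limma), which peak at opposite times of day. The part of these genes in the values of Igfbp1, Cish and the sex-biased lists was not tested.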

How the data were processed

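RNA of whole mouse liver was measured in 12 libraries, 3 in each of 4 groups. Reads went through HISAT2 2.0.4 and HTSeq 0.11.2 with GRCm38, per the submitters' processing notes; no source used here gives the normalization tool, library kit or strand setting, so genes on opposite strands can share reads. What the authors deposited is a signal for each gene, whole gene counts divided by 1 factor per library, with 1 read worth 0.753 to 1.204 units; 100% of the values came out whole within 0.01 reads. For replicate 1 of WT GFP and of WT MET/CAT, 1 read is worth nearly 1 unit, 0.9972 and 0.9968. Their largest departures from whole reads were 0.000177 and 0.000105. No other column of per-sample values was found.

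Values were tested as log2(value + 1) with limma 3.58.1 (R 4.3.3), fitting 4 group means over 12 libraries with a mean-variance trend. Genes needed 10 normalized units in 3 libraries, and p-values were Benjamini-Hochberg adjusted over 13871 genes. A fold on this scale understates the change of low genes. edgeR 4.0.16 and DESeq2 1.42.0 on the recovered reads were alternatives, and each test was checked on simulated data. Other alternatives were pseudocounts of 0.5 and 8, other filters and scalings, library quality weights, a length trend, a replicate block, only the libraries compared and leaving out each library. Correlations used 100000 two-sided permutations, or all 1296 orderings within groups where group means were subtracted.

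The members and lists were chosen with earlier results of these data known. Every member was named; of each list, all called genes were named where 5 or fewer were called, and otherwise up to 4 of smallest p; for Ghr, Igf1 and Socs2, the 3 genes of highest r with a mean of at least 100. Gene positions are those of GENCODE on GRCm38, and promoter sequences those of RefSeq.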

Additional observations from a re-analysis of the deposited data

How the results depend on the processing

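With 3 libraries a group, the SE of a difference of 2 groups was 0.20 to 0.26 log2 units for Ghr, Igf1, Igfals, Igfbp3, Igfbp4 and Igf2r, 0.56 for Igfbp2, 0.68 for Cish, 0.73 for Socs2 and 0.86 for Igfbp1. Of 44 log2 differences of the 10 genes, taken in the 4 comparisons of 2 groups and for 4 further values of Igfbp1, Cish and Igf2r, 528 fits that left out a library gave 500 on the same side of 0 and of the threshold, 2 newly past it and 26 of reversed sign. Another 524 fits under other settings gave 492, 7 and 25. For a comparison of 2 groups, leaving out a library of neither group cannot change the difference. The sign was thus fixed in advance in part of the 528 fits, and the 500 overstates how stable the values are. Of 17 differences of at least 0.5 log2 units, 3 reversed in some fit, namely Igfbp2 for the deletion in GFP livers, Socs2 for the deletion in MET/CAT livers and Cish for MET/CAT in KO livers. With limma's library quality weights, genes of the axis were called where the fit without weights called 0: 3 for the deletion in GFP livers (Igfals -0.53, Igf2r 0.31, Cish -1.18), 1 for MET/CAT in WT livers (Cish -2.51), 1 in KO livers (Igfbp1 3.34), 2 averaged over genotypes (Igfbp1 2.21, Cish) and 1 in the interaction (Cish 2.54). Leaving out a library gave 0 to 1 called for MET/CAT in KO livers, Socs2 without KO MET/CAT replicate 1, and 0 to 1 averaged over genotypes, Igfbp1 without WT GFP replicate 3 (2.34, adjusted p = 0.0333 by limma). The share of all genes called in these fits is not given here, so these counts are not read as results about the axis. The cause was not tested. The replicate block called 0 of the 10 in each of 7 comparisons, and 7, 1, 64, 187, 1, 532 and 2 of all genes. Libraries with the same number had correlated deviations of -0.20 to 0.28, and those with different numbers of -0.29 to 0.18. In GFP livers the same-number values were -0.02, 0.28 and 0.26 for replicates 1, 2 and 3, and replicate 2 with 3 gave -0.29 and -0.26. The labels do not say whether equal numbers mark a shared day or litter, and these values cannot settle it.

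Igf1 reversed for the deletion in GFP livers with quantile normalization (0.19) and equal totals (0.064), in MET/CAT livers with quantile normalization (-0.074) and library weights (-0.000994), for MET/CAT in WT livers with equal totals (-0.025) and length trend removed (-0.021), and in KO livers with quantile normalization (-0.15) and equal totals (-0.013). Igfbp3 with library weights was 0.17 and Igfbp4 with quantile normalization 0.11 and equal totals 0.13 for the deletion in GFP livers. For MET/CAT in KO livers Igfbp4 with library weights was 0.0039. Igfbp2 was -0.016 with quantile normalization and -0.026 with length trend removed for the deletion in MET/CAT livers. For MET/CAT in KO livers it was -0.33 with quantile normalization, -0.19 with equal totals, -0.26 with edgeR, -0.25 with DESeq2, -0.51 with library weights and -0.27 with length trend removed. Socs2 was 0.19 with edgeR and 0.20 with DESeq2 for the deletion in MET/CAT livers, and -0.032 with equal totals and -0.025 with length trend removed for MET/CAT in WT livers. Ghr was 0.040 with quantile normalization there.

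Leaving out a library, the deletion in GFP livers ranged from -0.35 to 0.15 for Igf1, -1.09 to 0.19 for Igfbp2, -0.42 to 0.080 for Igfbp3 and -0.27 to 0.086 for Igfbp4. In MET/CAT livers it ranged from -0.12 to 0.14 for Igf1, -0.42 to 0.47 for Igfbp2 and -0.063 to 0.091 for Igfbp4. MET/CAT in WT livers ranged from -0.093 to 0.047 for Ghr, -0.16 to 0.35 for Igf1, -0.25 to 0.056 for Igfbp3, -0.33 to 0.030 for Igfbp4 and -0.39 to 0.45 for Socs2. In KO livers it ranged from -0.18 to 0.018 for Igfals, -0.72 to 0.56 for Igfbp2, -0.12 to 0.034 for Igfbp4 and -0.12 to 1.29 for Cish. Of the pairs, r was 0.23 for Ghr and Igf1 with group means subtracted, and without the 2 libraries farthest from the median -0.25 for Igf1 and Socs2 and 0.35 for Igf1 and Igfbp1.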

Other observations

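A pair of the listed female-biased genes had reads in few libraries. Cyp2b9, a cytochrome P450 gene that growth hormone pulses silence, was at 8586 and 6216 normalized reads in WT MET/CAT replicates 1 and 2, and at 0 to 0.866 in the other 10 libraries. Cyp2b13, its near-identical neighbour in sequence, was at 6738 and 2727 in the same libraries and at 0 in the other 10. Neither gene was tested, and reads of such copies are uncertain. Replicate 3 of that group was at 0 for both.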
